A study of Mus musculus with 12 samples.

Results

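Marker genes of the nephron downstream of the proximal tubule were followed in isolated mouse glomeruli, namely Umod, Slc12a1 and Kcnj1 of the thick ascending limb of the loop of Henle, Slc12a3, Pvalb and Trpm6 of the distal convoluted tubule, Calb1 of the distal convoluted and connecting tubule, and Aqp2, Scnn1b and Atp6v1b1 of the collecting duct. A gene was matched through probe sets annotated with its symbol alone, and where it had several probe sets the one with the highest mean over all arrays stood for it. All 10 genes were found among 18201 genes with a named probe set, and all 10 were among the 11921 genes tested. The 4 groups of 3 mice were 129S2SvPAs anti-GBM GN, 129S2SvPAs control, C57BL6J anti-GBM GN and C57BL6J control, with 1 Affymetrix array per mouse. The mice were females of 8 to 10 weeks from Charles River. Anti-GBM GN is a glomerulonephritis set off by nephrotoxic serum, whose antibodies bind the glomerular basement membrane. Nephritic mice received it on days 0, 1 and 2 and were killed on day 4. The labels do not say what the control mice received, and they name no allele or transgene. Glomeruli were recovered from kidney tissue on nylon sieves of 100 and 45 µm, so the RNA is that of a sieved preparation and not of purified cells.

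Filtrate leaving the proximal tubule passes through the thick ascending limb, where the cotransporter NKCC2 (Slc12a1) takes up sodium, potassium and chloride and the channel ROMK (Kcnj1) returns potassium to the lumen. The distal convoluted tubule then takes up sodium and chloride through NCC (Slc12a3) and magnesium through the channel TRPM6, and its cells hold the calcium-binding protein parvalbumin (Pvalb). Calbindin-D28k (Calb1) buffers calcium in late distal and connecting tubule cells. In the collecting duct, principal cells take up water through aquaporin-2 (Aqp2) and sodium through the epithelial channel ENaC, of which Scnn1b is the beta subunit, while intercalated cells secrete acid with a proton pump whose B1 subunit is Atp6v1b1. Uromodulin (Umod) is made by the thick ascending limb and secreted into urine. All 10 genes serve as markers of tubule rather than of the glomerular tuft.

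The 250 bases before the start of the gene are shown for 3 of these genes because they behaved differently on the arrays. Umod stayed within a narrow range, at the highest signals of the 10 genes, and Pvalb had the deepest decrease. Aqp2 was the only one of the 10 to pass the main test below as higher in nephritis, in 129S2SvPAs. Sequences are from RefSeq on GRCm38.p6, read 5′ to 3′ on the gene's own strand. Capitals mark a GATA motif (AGATAA, or TTATCT on the other strand), an HNF1 half-site (GTTAAT, or ATTAAC on the other strand) or a TATA motif (TATAA, or TTATA on the other strand).
Umod, chr7:119479263-119479512, minus strand: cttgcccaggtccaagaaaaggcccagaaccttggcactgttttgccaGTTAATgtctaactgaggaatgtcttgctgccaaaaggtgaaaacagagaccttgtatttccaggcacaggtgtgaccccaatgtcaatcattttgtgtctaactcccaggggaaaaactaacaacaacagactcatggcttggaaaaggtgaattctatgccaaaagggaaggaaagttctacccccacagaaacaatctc
Pvalb, chr15:78206401-78206650, minus strand: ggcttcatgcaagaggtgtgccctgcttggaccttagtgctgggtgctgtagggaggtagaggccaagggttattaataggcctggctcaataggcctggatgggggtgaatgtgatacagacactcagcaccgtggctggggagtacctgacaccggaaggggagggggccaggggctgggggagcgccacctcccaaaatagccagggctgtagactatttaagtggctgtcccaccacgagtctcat
Aqp2, chr15:99578806-99579055, plus strand: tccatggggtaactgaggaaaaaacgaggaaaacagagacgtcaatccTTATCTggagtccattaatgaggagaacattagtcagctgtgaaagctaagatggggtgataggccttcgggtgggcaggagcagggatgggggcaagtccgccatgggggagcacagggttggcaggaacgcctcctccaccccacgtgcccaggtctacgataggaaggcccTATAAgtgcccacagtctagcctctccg
The Umod window held 1 HNF1 half-site, beginning 202 bases before the start. The Aqp2 window held 1 GATA motif in the reverse orientation 202 bases before the start and 1 TATA motif 28 bases before it, and the Pvalb window held none of the 3 motifs. The RefSeq table gave 10 windows of 250 bases before an annotated transcript start for 9 of the 10 genes. Of these, 5 windows, the 3 shown among them, begin at the gene's own start. Of the 10, 2 held the GATA motif, 1 the HNF1 half-site and 2 the TATA motif. Among all 32851 windows of the same length, 9.99% held the GATA motif, 6.43% the HNF1 half-site and 22.8% the TATA motif. Matches of different motifs did not overlap in the windows shown, and a match is a description of the sequence only.

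The values are log2 probe set signals, and array medians lay between 2.99 and 3.06. A gene was tested if its signal was above 3.03, the middle value of the table, on 3 or more arrays, with limma over all 12 arrays. A gene was called at a Benjamini-Hochberg adjusted p under 0.05. The number of arrays limits the precision, and differences near the lowest signals understate the true ones. One array stood apart: 129S2SvPAs anti-GBM GN replicate 1 had a mean correlation of 0.974 with its own group, below the other arrays, and results are also given without it. Without it, 5 of the 6 genes called in the 129S2SvPAs response below were still called. Of the podocyte genes with a named probe set 9 of 9 passed the filter, and of the proximal tubule genes 27 of 28 did. Of all 18201 genes with a named probe set 11921 passed, so passing the filter cannot show how far the tissue label holds. Tubule transcripts gave strong signals in the preparation, with Umod between 13.43 and 13.94 over all arrays. In C57BL6J control, means of the tested proximal tubule genes ran from 4.74 (Ass1) to 14.12 (Miox). Those of the podocyte genes ran from 5.64 (Kirrel) to 11.84 (Podxl). Signals of different probe sets do not compare amounts between genes, and the share of tubule tissue was not measured. Podocyte markers differed by strain, with 8 of 9 lower in 129S2SvPAs control than in C57BL6J control, where 5.11% of all genes were lower.

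The first question was which of these markers anti-GBM GN changed in each strain. In 129S2SvPAs 5 of 10 genes fell (Slc12a1, Kcnj1, Pvalb, Trpm6 and Calb1) and 1 rose (Aqp2), where 20.3% of all genes tested were called. Of all genes 9.76% were called lower and 10.6% higher. The median difference of the 10 genes was -0.83 on the log2 scale, against 0.00 over all genes tested. In 8 of the 10 genes the 3 nephritic arrays did not overlap the 3 control arrays, as in 32.5% of all genes. Without 129S2SvPAs anti-GBM GN replicate 1, 4 genes fell and 1 rose, and without replicate 2 of that group 3 fell and 1 rose. With the proximal tubule marker mean added to the fit as a covariate, 0 of the 10 genes were called in either direction in limma. Pvalb then stood at -4.06 (SE 1.05, adjusted p = 0.165 in limma). That marker mean lay between -0.48 and -0.29 in 129S2SvPAs anti-GBM GN and between 0.12 and 0.31 in 129S2SvPAs control. It therefore ran with the nephritis in this strain, and the fit cannot tell them apart. In C57BL6J 1 of 10 genes fell (Pvalb) and 0 rose, where 7.09% of all genes were called, 2.31% lower and 4.78% higher. There the median difference was -0.24, against -0.03 over all genes, and 3 of the 10 genes had arrays that did not overlap, as did 29.1% of all genes.

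**Figure D1:**
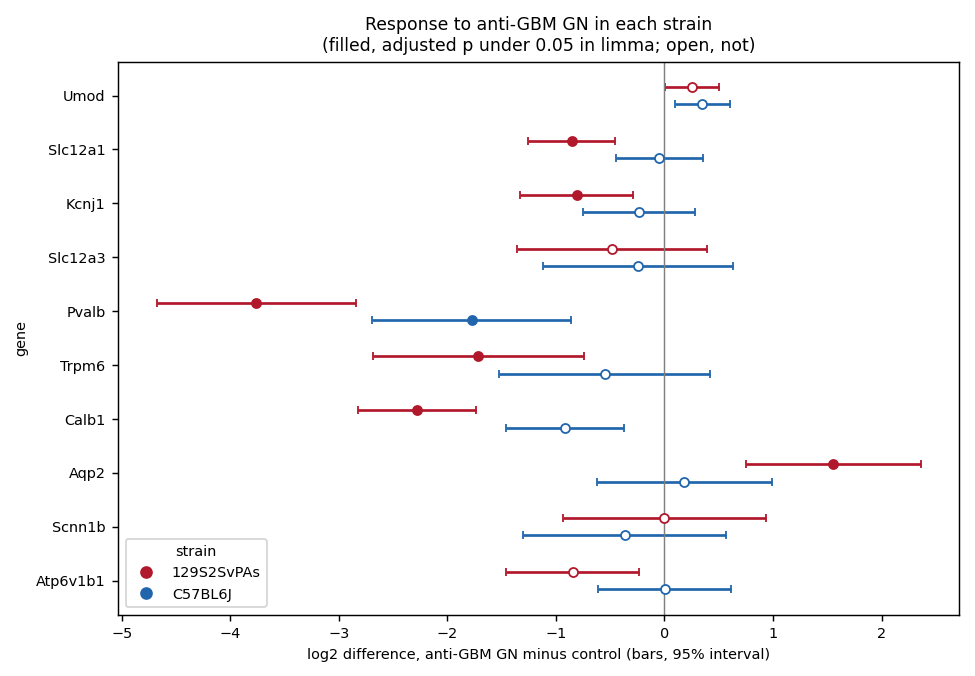
Difference between anti-GBM GN and control on the log2 scale (horizontal axis) for each gene (vertical axis) in 129S2SvPAs (red, upper of each pair) and C57BL6J (blue), with 95% intervals from limma; filled points passed the adjusted threshold. In 129S2SvPAs, 5 filled points lie left of 0 and Aqp2 lies right of it, and in C57BL6J only Pvalb is filled.

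In the thick ascending limb, the salt transporter and the potassium channel fell in 129S2SvPAs while uromodulin lay slightly higher without passing the test. Slc12a1 had 10.01, 9.67 and 10.19 in 129S2SvPAs anti-GBM GN, against 11.11, 10.67 and 10.65 in 129S2SvPAs control. Every nephritic array lay below every control array, and the difference was -0.85 (SE 0.18, adjusted p = 0.00744 in limma), or 1.81-fold lower. It was -0.88 without 129S2SvPAs anti-GBM GN replicate 1 (adjusted p = 0.0141 in limma). In C57BL6J, Slc12a1 had 10.23, 10.41 and 10.59 in anti-GBM GN, against 10.25, 10.67 and 10.45 in control. Those groups overlapped, with a difference of -0.05 (95% interval -0.45 to 0.35).

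Kcnj1 had 8.33, 8.25 and 9.16 in 129S2SvPAs anti-GBM GN, against 9.40, 9.24 and 9.53 in 129S2SvPAs control. The groups did not overlap, although replicate 3 of the nephritic mice came close to the lowest control, and the difference was -0.81 (SE 0.23, adjusted p = 0.033 in limma). That call did not survive leaving out 129S2SvPAs anti-GBM GN replicate 1 (adjusted p = 0.0865 in limma) or replicate 2 (0.12), or 129S2SvPAs control replicate 1 (0.0808) or replicate 3 (0.0922). Of 14 alternative settings, which include leaving out single arrays, only 6 kept the call. In C57BL6J, Kcnj1 had 8.71, 8.96 and 9.10 in anti-GBM GN, against 9.10, 9.46 and 8.91 in control. These overlapped, with a difference of -0.23 (95% interval -0.75 to 0.29). A second Kcnj1 probe set, of lower signal, differed by -0.60 in 129S2SvPAs and by -0.53 in C57BL6J.

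Umod, the secreted product of the same cells, had 13.76, 13.79 and 13.91 in 129S2SvPAs anti-GBM GN, against 13.65, 13.55 and 13.50 in 129S2SvPAs control. In C57BL6J it had 13.61, 13.94 and 13.94 in anti-GBM GN, against 13.43, 13.47 and 13.54 in control. Nephritic arrays lay above control arrays in both strains without overlap, but the differences of 0.25 (SE 0.11, adjusted p = 0.146 in limma) in 129S2SvPAs and 0.35 (SE 0.11, adjusted p = 0.0986 in limma) in C57BL6J did not pass. The 129S2SvPAs difference without anti-GBM GN replicate 1 was 0.28 (adjusted p = 0.136 in limma). The whole range of Umod over 12 arrays was 0.51, the smallest of the 10 genes. Its signals, from 13.43 to 13.94, were also the highest of the 10 genes. Whether differences are understated at such high signals was not tested. A second Umod probe set gave 0.31 in 129S2SvPAs and 0.33 in C57BL6J.

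**Figure D2:**
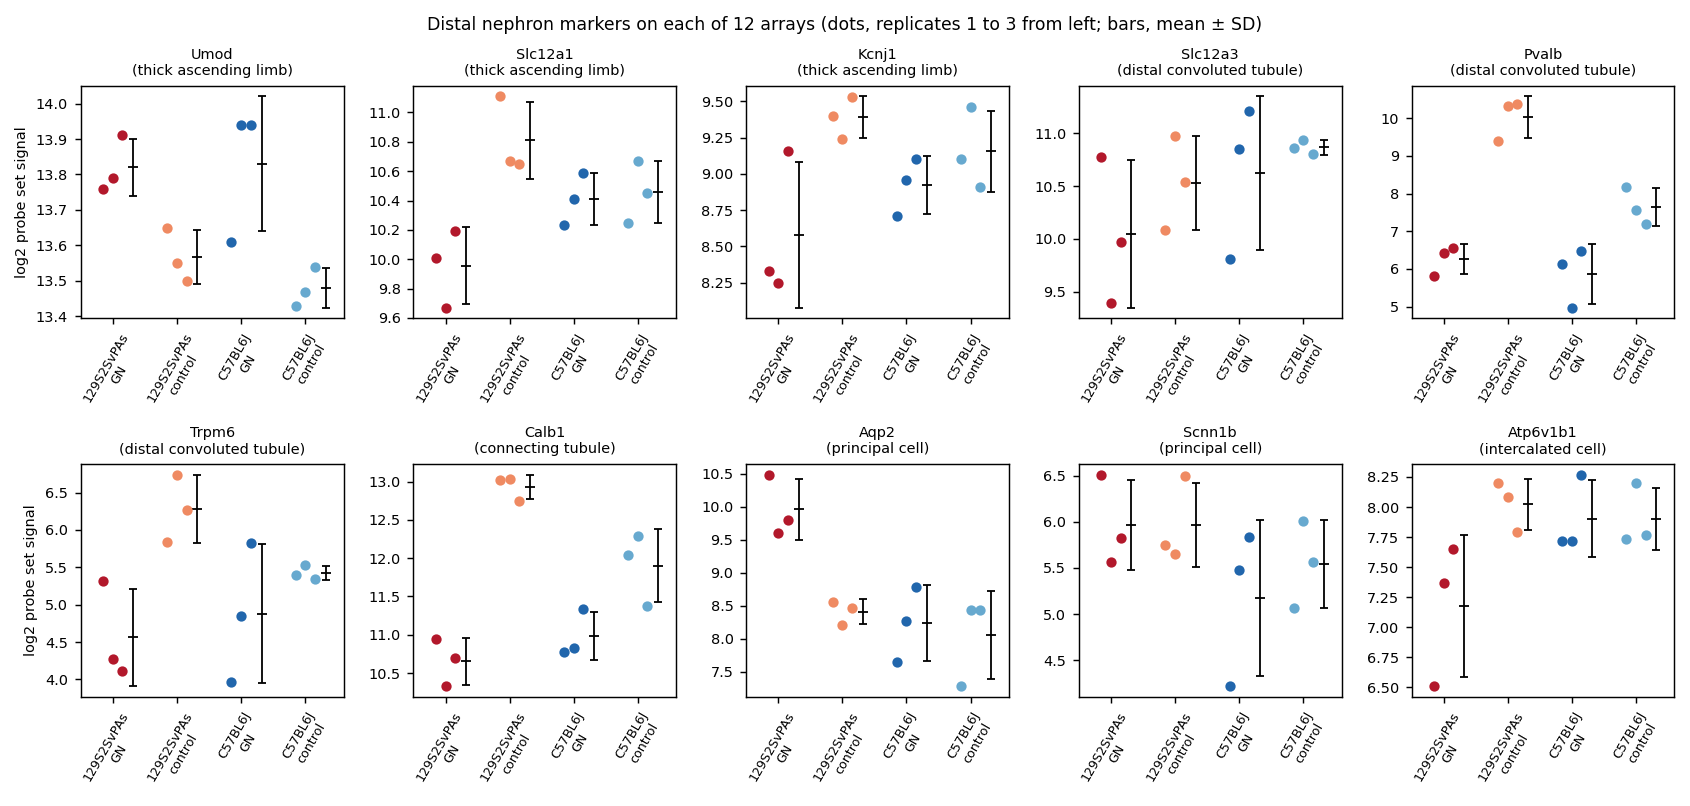
Log2 probe set signal (vertical axis, a scale of its own in each panel) of the 10 genes on each array, in the order 129S2SvPAs anti-GBM GN, 129S2SvPAs control, C57BL6J anti-GBM GN and C57BL6J control; dots are replicates and black bars mean and SD. Pvalb spans 5.41 log2 units over the 12 arrays and Umod 0.51, and the 3 nephritic 129S2SvPAs arrays stand above all others for Aqp2.

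The distal convoluted tubule held the deepest decrease of the 10 genes. Pvalb had 5.82, 6.41 and 6.56 in 129S2SvPAs anti-GBM GN, against 9.39, 10.31 and 10.38 in 129S2SvPAs control. The groups were far apart, with a difference of -3.76 (SE 0.42, adjusted p = 0.000157 in limma), or 13.6-fold lower. Leaving out 129S2SvPAs anti-GBM GN replicate 1 gave -3.54 (adjusted p = 0.000643 in limma). In C57BL6J, Pvalb had 6.14, 4.97 and 6.48 in anti-GBM GN, against 8.17, 7.57 and 7.18 in control. The groups did not overlap here either, and the difference of -1.78 (SE 0.42, adjusted p = 0.0271 in limma) was 3.43-fold lower. The call in C57BL6J was lost without C57BL6J anti-GBM GN replicate 1 (adjusted p = 0.0558 in limma) or replicate 2 (0.101), and without C57BL6J control replicate 1 (0.114) or replicate 2 (0.0719). It was also lost with no filter (0.0712), with only the groups compared in the fit (0.0557) and with the proximal tubule covariate (0.103).

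Trpm6, the magnesium channel, had 5.31, 4.27 and 4.11 in 129S2SvPAs anti-GBM GN, against 5.84, 6.74 and 6.26 in 129S2SvPAs control. The groups did not overlap, and the difference was -1.72 (SE 0.44, adjusted p = 0.0188 in limma), or -2.09 (adjusted p = 0.00796 in limma) without 129S2SvPAs anti-GBM GN replicate 1, which was the highest nephritic array. The call was lost without 129S2SvPAs anti-GBM GN replicate 2 (adjusted p = 0.0672 in limma) or replicate 3 (0.0677) and without 129S2SvPAs control replicate 2 (0.0652). In C57BL6J it had 3.96, 4.85 and 5.82 in anti-GBM GN, against 5.40, 5.53 and 5.35 in control. The nephritic arrays spread on both sides of the tight control arrays, with a difference of -0.55 (95% interval -1.52 to 0.42).

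Slc12a3, the thiazide-sensitive cotransporter, had 10.78, 9.39 and 9.97 in 129S2SvPAs anti-GBM GN, against 10.08, 10.97 and 10.54 in 129S2SvPAs control. In C57BL6J it had 9.81, 10.85 and 11.21 in anti-GBM GN, against 10.86, 10.94 and 10.80 in control. Groups overlapped in both strains. The differences were -0.48 (95% interval -1.36 to 0.40) in 129S2SvPAs and -0.24 (95% interval -1.12 to 0.64) in C57BL6J. Both intervals overlapped that of the Trpm6 difference in 129S2SvPAs (95% interval -2.69 to -0.75), and Slc12a3 was not tested against Trpm6. Without 129S2SvPAs anti-GBM GN replicate 1 the 129S2SvPAs difference was -0.85 (adjusted p = 0.146 in limma).

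Calb1 was measured by 4 probe sets, of which 3 gave signal above 3.03 on all 12 arrays. The one with the highest mean had 10.94, 10.33 and 10.69 in 129S2SvPAs anti-GBM GN, against 13.02, 13.03 and 12.75 in 129S2SvPAs control. The groups lay far apart, with a difference of -2.28 (SE 0.25, adjusted p = 0.000148 in limma), or 4.86-fold lower. With 129S2SvPAs anti-GBM GN replicate 1 left out it was -2.42 (adjusted p = 0.000278 in limma). In C57BL6J it had 10.78, 10.83 and 11.34 in anti-GBM GN, against 12.04, 12.29 and 11.37 in control. The lowest control array exceeded the highest nephritic array by little, and the difference of -0.92 (SE 0.25, adjusted p = 0.051 in limma) fell just short of the threshold. It passed on leaving out C57BL6J anti-GBM GN replicate 3 (-1.10, adjusted p = 0.0321 in limma) or C57BL6J control replicate 3 (-1.18, adjusted p = 0.0169 in limma), and with the mean of all probe sets (-1.09, adjusted p = 0.00662 in limma). The next 2 probe sets by mean differed by -3.25 and -3.21 in 129S2SvPAs and by -1.32 and -1.75 in C57BL6J. The fourth exceeded 3.03 on 3 arrays only.

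**Figure D3:**
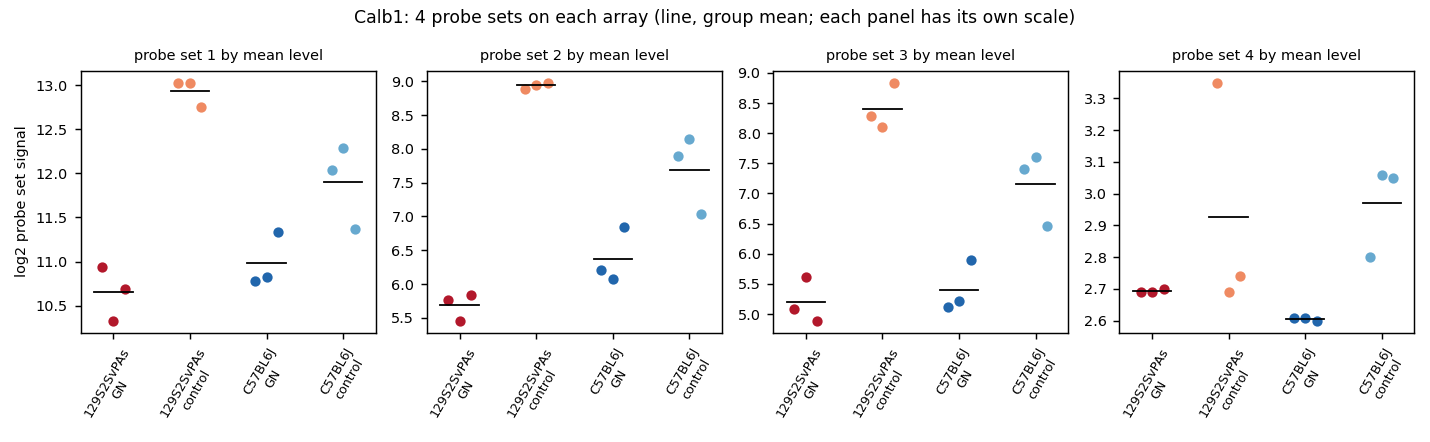
Log2 signal (vertical axis, a scale of its own in each panel) of the 4 Calb1 probe sets, ordered by mean level, on each array of 129S2SvPAs anti-GBM GN, 129S2SvPAs control, C57BL6J anti-GBM GN and C57BL6J control; dots are arrays and lines group means. In the first 3 panels the nephritic arrays lie below the control arrays of their strain, and the fourth probe set stays between 2.60 and 3.35.

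In the collecting duct, the water channel of principal cells rose in 129S2SvPAs, whereas the sodium channel subunit of the same cells showed no detectable difference. Aqp2 had 10.49, 9.61 and 9.80 in 129S2SvPAs anti-GBM GN, against 8.56, 8.20 and 8.47 in 129S2SvPAs control. All 3 nephritic arrays lay above all other arrays of the study, and the difference was 1.56 (SE 0.37, adjusted p = 0.0123 in limma), or 2.94-fold higher. Without 129S2SvPAs anti-GBM GN replicate 1, the highest of them, it was 1.30 (adjusted p = 0.0368 in limma). In C57BL6J, Aqp2 had 7.64, 8.27 and 8.79 in anti-GBM GN, against 7.28, 8.43 and 8.44 in control. Those groups overlapped, with a difference of 0.18 (95% interval -0.63 to 0.99).

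Scnn1b had 6.51, 5.56 and 5.82 in 129S2SvPAs anti-GBM GN, against 5.75, 5.65 and 6.49 in 129S2SvPAs control. In C57BL6J it had 4.22, 5.48 and 5.83 in anti-GBM GN, against 5.06, 6.01 and 5.56 in control. Groups overlapped in both strains, with differences of 0.00 (95% interval -0.94 to 0.94) in 129S2SvPAs and -0.37 (95% interval -1.30 to 0.57) in C57BL6J. The 129S2SvPAs difference was -0.27 (adjusted p = 0.742 in limma) without 129S2SvPAs anti-GBM GN replicate 1. These intervals are wide, so changes of up to 0.94 on the log2 scale in 129S2SvPAs remain within the error for this gene.

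Atp6v1b1, the marker of intercalated cells, had 6.51, 7.37 and 7.65 in 129S2SvPAs anti-GBM GN, against 8.20, 8.08 and 7.79 in 129S2SvPAs control. The groups did not overlap, but the difference of -0.85 (SE 0.28, adjusted p = 0.0541 in limma) did not pass. It passed in 4 of 14 alternative settings. Replicate 1 was the lowest of the nephritic arrays, and without it the difference was -0.51 (adjusted p = 0.123 in limma). In C57BL6J it had 7.72, 7.72 and 8.27 in anti-GBM GN, against 7.73, 8.20 and 7.77 in control, with a difference of 0.00 (95% interval -0.61 to 0.62).

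The 129S2SvPAs response minus the C57BL6J response was tested for each gene, and 0 of 10 passed in limma, where 0.562% of all genes did (0.268% higher and 0.294% lower). The median difference of responses was -0.69, against 0.03 over all genes. Among the 10 genes the lowest unadjusted p-values in limma were those of Calb1, Pvalb, Slc12a1 and Aqp2. For Pvalb the difference of responses was -1.99 (95% interval -3.28 to -0.69, adjusted p = 0.211 in limma), for Calb1 -1.36 (95% interval -2.14 to -0.59, adjusted p = 0.158 in limma) and for Aqp2 1.37 (95% interval 0.23 to 2.52, adjusted p = 0.358 in limma). Slc12a1 had -0.81 (95% interval -1.37 to -0.24, adjusted p = 0.257 in limma). A larger response in 129S2SvPAs was therefore not established for any of the 10 genes after adjustment. With 129S2SvPAs anti-GBM GN replicate 1 left out, 0 of 10 passed as well, with -1.76 for Pvalb (adjusted p = 0.226 in limma), -1.51 for Calb1 (0.0973), 1.11 for Aqp2 (0.361) and -0.83 for Slc12a1 (0.209). Only with array weights did one pass, Calb1, at -1.50 (adjusted p = 0.0411 in limma).

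Strains were then compared within each condition, using the same arrays as the responses above. Between control mice, 2 of 10 genes were higher in 129S2SvPAs and 0 were lower in limma, where 8.43% of all genes were called, 3.32% higher and 5.11% lower. Pvalb averaged 10.03 ± 0.55 in 129S2SvPAs control and 7.64 ± 0.50 in C57BL6J control (SD, n = 3 each), a difference of 2.39 (SE 0.42, adjusted p = 0.00504 in limma). Calb1 averaged 12.93 ± 0.16 in 129S2SvPAs control and 11.90 ± 0.48 in C57BL6J control (SD, n = 3 each), a difference of 1.03 (SE 0.25, adjusted p = 0.0277 in limma). The Calb1 call was lost without C57BL6J control replicate 1 (adjusted p = 0.0512 in limma) or replicate 3 (0.0818), without 129S2SvPAs control replicate 1 (0.0856) or replicate 2 (0.0667), with no filter (0.0613) and with only the groups compared (0.0704). Trpm6 also lay higher on every 129S2SvPAs control array, by 0.85, without passing (SE 0.44, adjusted p = 0.291 in limma). Podocyte markers moved the other way in the same contrast, with a list mean of -0.99 to -0.31 in 129S2SvPAs control and 0.49 to 1.15 in C57BL6J control (log2 after centring each gene), and their part in the strain differences was not tested.

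Among nephritic mice, 1 of 10 genes was higher in 129S2SvPAs and 0 were lower in limma, where 8.38% of all genes were called, 3.49% higher and 4.89% lower. That gene was Aqp2, with 9.97 ± 0.46 in 129S2SvPAs anti-GBM GN and 8.23 ± 0.58 in C57BL6J anti-GBM GN (SD, n = 3 each), a difference of 1.73 (SE 0.37, adjusted p = 0.0148 in limma). It was 1.47 without 129S2SvPAs anti-GBM GN replicate 1 (adjusted p = 0.041 in limma). The call was lost without C57BL6J anti-GBM GN replicate 1, the lowest of its group (1.44, adjusted p = 0.0607 in limma), and with the proximal tubule covariate (2.20, adjusted p = 0.122 in limma). Pvalb and Calb1, which differed between control mice, had 0.40 (SE 0.42, adjusted p = 0.624 in limma) and -0.33 (SE 0.25, adjusted p = 0.482 in limma) here. Slc12a1 and Atp6v1b1 lay lower on every 129S2SvPAs anti-GBM GN array than on any C57BL6J anti-GBM GN array, by -0.45 (SE 0.18, adjusted p = 0.173 in limma) and -0.73 (SE 0.28, adjusted p = 0.152 in limma), and neither passed.

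The C57BL6J anti-GBM GN arrays differed from one another along a common order. Replicate 3 was highest in 9 of the 10 genes and tied for Umod, and replicate 1 was lowest in 8 of the 10. Other groups also had uneven arrays: C57BL6J control replicate 2 was highest in 7 of the 10, and 129S2SvPAs anti-GBM GN replicate 2 was lowest in 6. The mean over the 10 genes after centring each was -0.72, -0.38 and 0.13 on replicates 1, 2 and 3 of C57BL6J anti-GBM GN. This mean was -0.16, -0.54 and -0.22 in 129S2SvPAs anti-GBM GN, 0.50, 0.64 and 0.63 in 129S2SvPAs control, and -0.07, 0.25 and -0.07 in C57BL6J control. Most tubule lists without the 10 markers ran in the same order on replicates 1, 2 and 3 of C57BL6J anti-GBM GN. The intercalated cell list stood at -0.58, 0.06 and 0.50, the principal cell list at -0.49, -0.14 and 0.20 and the distal convoluted tubule list at -0.54, -0.22 and 0.09. The connecting tubule list stood at -0.38, -0.23 and 0.09, the pan-tubule list at -0.33, -0.10 and 0.17 and the proximal tubule list at -0.18, -0.04 and 0.12. The thick ascending limb list did not keep that order, at -0.20, -0.31 and 0.02. The leukocyte list ran the opposite way, at 1.40, 0.57 and 0.08, as did the parietal epithelium list, at 0.49, 0.42 and 0.25. The podocyte list stood at 1.04, 0.21 and 0.55, the mesangial list at 0.77, 1.06 and 0.70 and the endothelial list at 0.70, 0.81 and 0.20. The tubule injury list stood at -0.01, 0.46 and 0.44. The part of these lists in the order of the 10 genes was not tested. In such bulk samples, fewer cells of a type and less RNA per cell cannot be told apart.

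Other genes of the 5 segments were taken from lists without the 10 markers. Of 59 such genes 49 were tested, and in 129S2SvPAs 11 fell and 3 rose in limma, with a median of -0.37. Of all genes tested 9.76% fell and 10.6% rose there, so the 3 that rose are no larger a share than among all genes. In C57BL6J 1 fell and 0 rose, with a median of -0.09, below the 2.31% and 4.78% of all genes that did, and for the difference of responses 0 passed. Without 129S2SvPAs anti-GBM GN replicate 1, a setting added after the values were seen, 13 of the 14 genes called in 129S2SvPAs were still called, and 3 others were too. The one lost was Casr (adjusted p = 0.0611 in limma). In the thick ascending limb list 5 of 11 fell and 1 rose in 129S2SvPAs. Egf, the precursor of epidermal growth factor, averaged 10.34 ± 0.19 in 129S2SvPAs anti-GBM GN and 12.05 ± 0.34 in 129S2SvPAs control (SD, n = 3 each), a difference of -1.71 (SE 0.20, adjusted p = 0.000201 in limma). Ptger3, a prostaglandin E2 receptor, differed by -1.43 (SE 0.20, adjusted p = 0.000636 in limma). These were -1.68 and -1.32 without 129S2SvPAs anti-GBM GN replicate 1. The others, named after their values were seen, were Sostdc1 (-1.39), the phosphatase inhibitor Ppp1r1a (-0.87) and the calcium-sensing receptor Casr (-0.71), which fell, and the tight junction protein Cldn16 (0.86), which rose.

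Slc8a1, the sodium-calcium exchanger that extrudes calcium from connecting tubule cells, had the deepest decrease among these genes. It averaged 4.74 ± 0.65 in 129S2SvPAs anti-GBM GN and 8.29 ± 0.34 in 129S2SvPAs control (SD, n = 3 each), a difference of -3.55 (SE 0.40, adjusted p = 0.000192 in limma), or 11.7-fold lower. It was also the gene that fell in C57BL6J, with 5.57 ± 0.62 in anti-GBM GN and 7.18 ± 0.59 in control (SD, n = 3 each), a difference of -1.61 (SE 0.40, adjusted p = 0.0376 in limma). Of the 7 connecting tubule genes tested, the mineralocorticoid receptor Nr3c2 fell too in 129S2SvPAs (-0.93, named after its value was seen), and the plasma membrane calcium pump Atp2b1 rose by 0.64 (SE 0.14, adjusted p = 0.00775 in limma). In the distal convoluted tubule list 1 of 8 fell, a share near that of all genes, namely the homeobox gene Emx1, at -0.83 (SE 0.21, adjusted p = 0.0179 in limma). Without 129S2SvPAs anti-GBM GN replicate 1 the differences were -3.19 for Slc8a1, 0.54 for Atp2b1 and -1.06 for Emx1.

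In the principal cell list 1 of 9 genes changed in 129S2SvPAs, where 20.3% of all genes did. Cldn4, a tight junction claudin, rose to 5.59 ± 0.34 in 129S2SvPAs anti-GBM GN, against 4.65 ± 0.31 in 129S2SvPAs control (SD, n = 3 each), a difference of 0.94 (SE 0.26, adjusted p = 0.0283 in limma). Among nephritic mice it was 1.43 higher in 129S2SvPAs (SE 0.26, adjusted p = 0.00666 in limma). In the intercalated cell list 3 of 14 fell in 129S2SvPAs, where 9.76% of all genes did. These were the proton pump subunit Atp6v1c2 by -0.84 (SE 0.18, adjusted p = 0.00735 in limma), carbonic anhydrase Car2 by -0.81 (SE 0.21, adjusted p = 0.0206 in limma) and the anion exchanger Slc4a1, named after its value was seen, by -1.78 with arrays that overlapped. Leaving out 129S2SvPAs anti-GBM GN replicate 1, Cldn4 differed by 1.13, Atp6v1c2 by -0.92 and Car2 by -0.59 in the 129S2SvPAs response. Between the control mice, Ptger3 (0.88, adjusted p = 0.0213 in limma) and Atp6v1c2 (0.67, adjusted p = 0.0444 in limma) were higher and Tmem72, a thick ascending limb transcript, was lower (-0.65, adjusted p = 0.0359 in limma) in 129S2SvPAs. Among nephritic mice, Egf (-1.22, adjusted p = 0.00341 in limma) and Car2 (-0.79, adjusted p = 0.0442 in limma) were lower in 129S2SvPAs. The Car2 call was lost without 129S2SvPAs anti-GBM GN replicate 1 (-0.57, adjusted p = 0.0908 in limma), while those of Egf (-1.18, adjusted p = 0.011) and Cldn4 (1.62, adjusted p = 0.00507) were not.

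**Figure D4:**
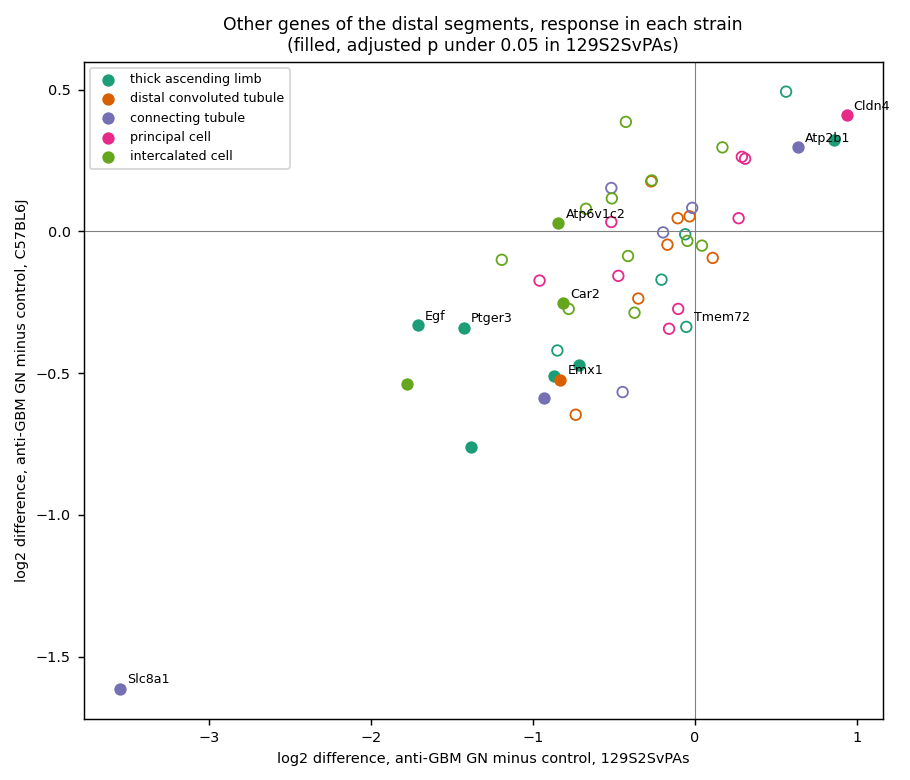
Log2 difference between anti-GBM GN and control in 129S2SvPAs (horizontal axis) and in C57BL6J (vertical axis) for the 49 other segment genes tested, coloured by list; filled points passed the adjusted threshold in 129S2SvPAs. Slc8a1 lies alone at the lower left (-3.55 and -1.61). Cldn4, Atp2b1 and Cldn16, the last without a label, are filled points at the upper right.

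Markers of the proximal tubule moved in the same contrast as the distal markers that fell. In 129S2SvPAs 9 of 27 tested proximal tubule genes fell and 1 rose, with a median of -0.67. Among all genes 9.76% fell and 10.6% rose. In C57BL6J 1 of the 27 fell and 0 rose, with a median of -0.14, where 2.31% of all genes fell. The mean of the list after centring each gene lay between -0.48 and -0.29 in 129S2SvPAs anti-GBM GN and between 0.12 and 0.31 in 129S2SvPAs control. In C57BL6J it lay between -0.18 and 0.12 in anti-GBM GN and between 0.09 and 0.36 in control. Of 6 pan-tubule epithelial genes tested, 1 fell in 129S2SvPAs (Ldhb, -0.43, named after its value was seen), and their mean lay between -0.11 and 0.08 in 129S2SvPAs anti-GBM GN and between 0.05 and 0.17 in 129S2SvPAs control. Of 11 genes listed for tubule injury, 7 rose in 129S2SvPAs, where 10.6% of all genes rose, and 4 rose in C57BL6J, where 4.78% did. Which cells held these transcripts was not tested.

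Markers of the cells of the tuft also moved in these contrasts. Of all genes tested, 10.6% rose and 9.76% fell in 129S2SvPAs, and 4.78% rose and 2.31% fell in C57BL6J. Of 9 podocyte genes 3 rose and 2 fell in 129S2SvPAs, although the list mean overlapped, between -0.94 and -0.60 in 129S2SvPAs anti-GBM GN and between -0.99 and -0.31 in 129S2SvPAs control. Those that rose were Podxl (1.18), Kirrel (0.86) and Synpo (1.06) and those that fell were Cdkn1c (-1.35) and Nphs1 (-1.68), named after their values were seen. Synpo (adjusted p = 0.0871 in limma) and Nphs1 (0.0513) did not pass without 129S2SvPAs anti-GBM GN replicate 1. Of 7 mesangial genes 4 rose in 129S2SvPAs and 3 rose in C57BL6J. The mesangial list mean was 0.72 ± 0.28 in 129S2SvPAs anti-GBM GN and -0.98 ± 0.09 in 129S2SvPAs control, and 0.85 ± 0.19 in C57BL6J anti-GBM GN and -0.59 ± 0.30 in C57BL6J control (SD, n = 3 each). Of 10 endothelial genes 4 rose and 1 fell in 129S2SvPAs, with a list mean of -0.07 ± 0.15 in anti-GBM GN and -0.85 ± 0.74 in control (SD, n = 3 each). In C57BL6J 1 rose and 1 fell, with a mean of 0.57 ± 0.32 in anti-GBM GN and 0.35 ± 0.39 in control (SD, n = 3 each). The part of these cells in the differences of the 10 genes was not tested. The part of the amount of tubule tissue in the differences was not tested either. The proximal tubule covariate cannot decide it, since in 129S2SvPAs that mean did not overlap between nephritic and control arrays.

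**Figure D5:**
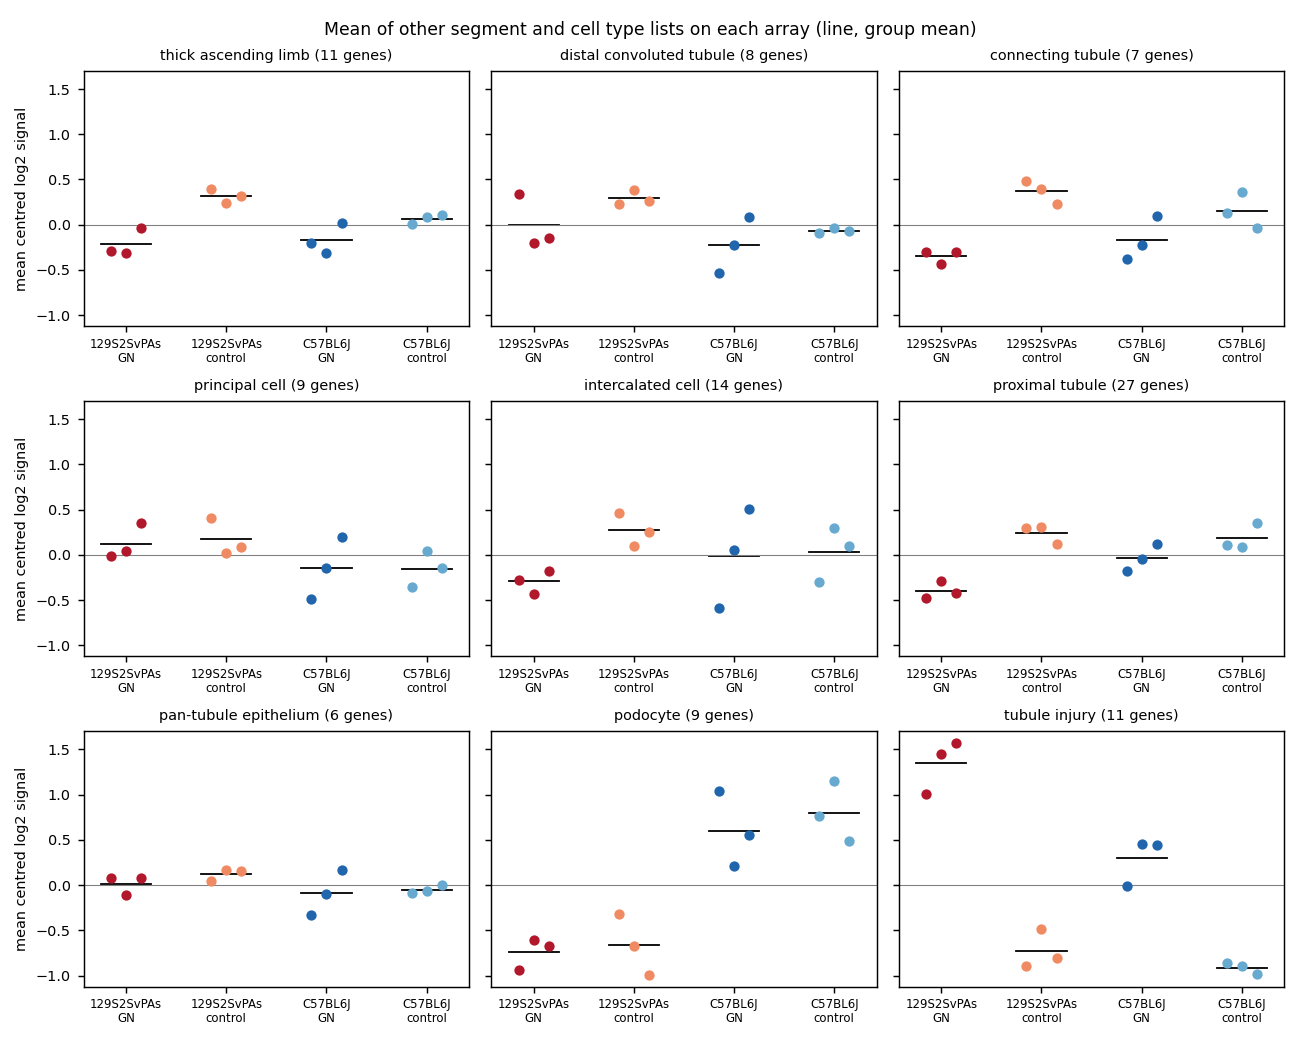
Mean log2 signal after centring each gene (vertical axis) of 9 marker lists on each array of 129S2SvPAs anti-GBM GN, 129S2SvPAs control, C57BL6J anti-GBM GN and C57BL6J control; dots are arrays, lines group means, and the segment lists leave out the 10 markers. The proximal tubule mean lies between -0.48 and -0.29 on the nephritic 129S2SvPAs arrays, below all other arrays, and the podocyte mean separates the strains.

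Across the 12 arrays, which share their group structure, the 10 genes did not vary as one. Pearson's r was 0.908 between Pvalb and Calb1, 0.856 between Trpm6 and Calb1, 0.846 between Slc12a1 and Kcnj1 and 0.817 between Slc12a1 and Calb1. It was -0.65 between Umod and Pvalb and -0.62 between Aqp2 and Atp6v1b1. After subtracting each group's mean, r was 0.218 between Pvalb and Calb1 and 0.633 between Slc12a1 and Kcnj1. It was 0.917 between Slc12a3 and Trpm6 and 0.844 between Aqp2 and Scnn1b. The genes most like the mean of the 10 over the 12 arrays were Pdk2 and Cdhr2 (r 0.95 each), Ndrg2 (0.94), Slc2a5 (0.928) and 1600014C10Rik (0.925). Most like Pvalb were Ptgr1 (0.986) and Cab39l (0.982), most like Calb1 Iyd (0.968) and Slc2a5 (0.962), and most like Aqp2 Chka (0.951) and Rnf220 (0.946). Most like Trpm6 were Pdk2 (0.956) and Slc13a2 (0.946), most like Slc12a1 D630004K10Rik (0.892) and Lmo7 (0.879), and most like Kcnj1 Slit2 (0.923) and Defb1 (0.896). Umod was most like Plcd1 (0.929) and Ipo4 (0.906), Slc12a3 most like Ube4b (0.906) and Rbfa (0.887), Scnn1b most like Med22 (0.961) and Rnf185 (0.923), and Atp6v1b1 most like Fam122b (0.946) and Slc31a1 (0.922). These are the highest of 11921 correlations for each gene and carry no test.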

How the data were processed

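All 12 arrays were analysed, 1 per mouse in 4 groups of 3. The authors deposited log2 probe set signals with 2 decimals for 45037 probe sets. No label states the scale, and log2 was inferred from the range of 1.12 to 15.02. The tools named per the submitters' processing notes are GCRMA and MAS5, versions not given, and which of them made these values is not stated. Scan dates and batches are not given in the sources used here. Probe sets were named from GEO's platform annotation: 34957 had 1 symbol, 920 several and 9160 none, and the last 2 kinds were left out. Groups came from the sample labels. In R 4.3.3, limma 3.58.1 fitted 1 mean per group over all arrays, with 5 contrasts, empirical Bayes moderation and Benjamini-Hochberg adjustment within each contrast over 11921 genes. The fit was tested on simulated data. The labels do not say that replicate numbers mark shared litters, batches or days. The deviations of same-number arrays from their group means all correlated over 0.1 in 2 of 6 pairs of groups, C57BL6J anti-GBM GN with C57BL6J control (lowest 0.208) and 129S2SvPAs control with C57BL6J control (lowest 0.239), and not in the other 4, where they ranged from -0.38 to 0.21. The replicate number is therefore a block in an alternative only. The p-values rest on the spread between mice within groups, pooled over the 4 groups and moderated over all genes tested. A gene therefore has the same SE in every comparison of 2 groups, whatever the spread of those groups. Non-marker genes named are, per segment list and contrast, up to 2 called genes with the lowest p and no overlap of arrays, plus those with the highest correlations. Genes outside that rule (Sostdc1, Ppp1r1a, Casr, Cldn16, Nr3c2, Slc4a1, Ldhb and 5 podocyte genes) were named after their values were seen. The markers, gene lists and tests were chosen with earlier results of these data known. Alternatives were quantile normalization, filters, the mean of all probe sets, array weights, the groups compared alone, the replicate block, a proximal tubule covariate and leaving out each array. Promoter windows were read in Python 3.11.15 with pandas 2.3.3, and figures drawn with matplotlib 3.10.9.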

Additional observations from a re-analysis of the deposited data

How the results depend on the processing

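Having 3 arrays per group and a dense floor of low signals limit what could be seen, and no batch could be tested. The setting that removed most calls was the proximal tubule covariate, which in 129S2SvPAs did not overlap between nephritic and control arrays and so cannot be told apart from the nephritis. With it, 0 of the 10 genes were called higher and 0 lower in the 129S2SvPAs response, 0 lower in the C57BL6J response and 0 higher among nephritic mice. In the C57BL6J response the number called lower was 0 with no filter or with only the groups compared, and 2 with the stricter filter, the mean of all probe sets or array weights, the last of which also called 1 higher (Umod). Array weights called 1 lower in the difference of responses and 1 lower among nephritic mice (Slc12a1). Between controls, 1 was called higher with no filter or with only the groups compared. Leaving out each array in turn, the C57BL6J response had 0 to 1 higher and 0 to 2 lower, and the 129S2SvPAs response 1 higher and 3 to 5 lower. The difference of responses had 0 in either direction, controls 1 to 2 higher, and nephritic mice 0 to 1 higher. Same-number arrays deviated together in 2 of 6 pairs of groups, those of the C57BL6J response and of the controls. The replicate block changed no count among the 10 genes in any contrast: the 129S2SvPAs response had 5 lower and 1 higher, the C57BL6J response 1 lower, controls 2 higher and nephritic mice 1 higher. With the block, genes called in the difference of responses over the whole table numbered 21 higher and 12 lower, against 32 and 35 without it. For all genes, the covariate left 23 higher and 6 lower in the 129S2SvPAs response, against 1260 and 1164, and array weights gave 1989 and 1841. No called difference of the 10 genes changed sign under any alternative. The following uncalled values changed sign. In the C57BL6J response, Slc12a1 was 0.0014 with quantile normalization and 0.0079 with the covariate, and with array weights Aqp2 was -0.0038 and Atp6v1b1 -0.13. With the covariate, the Umod difference of responses was 0.14, and among nephritic mice Umod was 0.20 and Trpm6 0.21. The mean of all probe sets put Umod at 0.028 among nephritic mice. Leaving out single arrays, the C57BL6J response ranged from -0.15 to 0.06 for Slc12a1, from -0.54 to 0.16 for Slc12a3, from -0.69 to 0.11 for Scnn1b, from -0.20 to 0.48 for Aqp2 and from -0.18 to 0.15 for Atp6v1b1. The difference of responses ranged from -0.11 to 0.69 for Scnn1b and from -0.65 to 0.088 for Slc12a3, and Aqp2 between controls from -0.025 to 0.56. Among nephritic mice, Umod ranged from -0.12 to 0.045, Pvalb from -0.047 to 0.71 and Trpm6 from -0.77 to 0.16. The cause of these changes was not tested. Array weights are lowest for 129S2SvPAs anti-GBM GN replicate 1.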
